A study of Mus musculus with 119 samples.

Results

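The cholinergic genes of the mouse brain were described here by 10 members: Chat, Slc5a7, Slc18a3, Ache, Lhx8 and the muscarinic receptor genes Chrm1, Chrm2, Chrm3, Chrm4 and Chrm5. The 10 were taken by symbol from the 55291 genes of the count tables, and all 10 were found. Poly(A) RNA was sequenced from tissue punches of 5 regions: the ventral tegmental area (VTA) of the midbrain, the amygdala (Amy), 2 parts of the striatum, namely the nucleus accumbens (NAc) and the dorsal medial striatum (DMS), and the prefrontal cortex (PFC). Female and male mice received vehicle or 10 mg/kg THC, the main psychoactive cannabinoid of cannabis, by 1 daily injection from postnatal day 28 to 48. Behavioral tests began on day 63 and the tissue was taken afterwards; the labels give an age of 11 weeks and the strain C57BL/6J, while the methods name the substrain C57BL/6NCrl. For the DMS libraries the labels name the dorsolateral striatum. There were 6 libraries in each of 19 groups and 5 in male VTA vehicle, 119 in all. All 5 regions came from the same mice, but the labels do not link a library to its mouse.

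Acetylcholine is made in the nerve terminal by choline acetyltransferase, the product of Chat. Slc5a7 encodes the transporter that brings choline into the terminal, and Slc18a3 encodes the vesicular transporter that loads acetylcholine into vesicles. Ache encodes the esterase that ends the signal in the cleft, and Lhx8 is a LIM homeobox factor of forebrain cholinergic neurons. In the striatum acetylcholine comes mainly from sparse interneurons, whereas the cortex and the amygdala receive it from basal forebrain axons. The M1, M3 and M5 receptors couple to Gq proteins, and the M2 and M4 receptors couple to Gi/o proteins, which lower cyclic AMP. In bulk tissue, fewer cholinergic cells and less RNA per cell cannot be told apart.

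Slc18a3 lies inside the first intron of Chat, on the same strand, in 4 of 8 annotated Chat transcripts, and the exons of the pair share 0 bases. This arrangement is known as the cholinergic gene locus. The sequences before the starts of Chat, Slc18a3 and Slc5a7 are shown because these 3 genes varied together between libraries. They come from RefSeq (GRCm38.p6) and are written 5′ to 3′ on the minus strand, on which all 3 genes lie. The stretches are chr14:32465990-32466159 for Chat, chr14:32464851-32465100 for Slc18a3 and chr17:54299035-54299284 for Slc5a7. For Chat the 80 bases nearest the RefSeq start were left out because they lie inside the GENCODE gene model. Capitals mark TGACG on either strand, the core of the cyclic AMP response element.
Chat: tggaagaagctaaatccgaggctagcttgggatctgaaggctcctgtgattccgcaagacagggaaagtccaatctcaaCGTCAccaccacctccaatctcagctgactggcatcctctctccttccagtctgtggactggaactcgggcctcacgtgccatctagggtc
Slc18a3: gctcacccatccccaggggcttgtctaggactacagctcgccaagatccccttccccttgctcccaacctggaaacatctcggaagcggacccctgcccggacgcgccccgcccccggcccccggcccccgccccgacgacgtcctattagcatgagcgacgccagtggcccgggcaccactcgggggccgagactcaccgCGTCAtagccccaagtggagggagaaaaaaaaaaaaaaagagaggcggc
Slc5a7: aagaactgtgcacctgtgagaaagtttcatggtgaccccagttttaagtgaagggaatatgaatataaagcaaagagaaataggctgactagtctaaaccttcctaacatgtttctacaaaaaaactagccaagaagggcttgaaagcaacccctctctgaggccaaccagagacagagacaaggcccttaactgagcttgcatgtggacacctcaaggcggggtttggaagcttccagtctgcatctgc

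A window of 250 bases before the start was given for 9 of the 10 members. TGACG was held by the windows of Chat (first base at position -171) and Slc18a3 (position -49) among these 9, and by 17.8% of all 32851 windows. Another 5 motifs were searched on both strands, and none of them overlapped these matches. GGGCGG was found in Chrm4, Ache, Chrm2 and Slc18a3 and in 32.7% of all windows. CCAAT was found in Chrm4, Chrm2 and Chat and in 33.8% of all windows. CACCTG was found in Chrm4 and Slc5a7 (17.2%), TATAAA in Slc5a7 (12.4%) and TAATTA in Chrm5 (4.84%). These are matches of letters only.

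The libraries held between 3090998 and 77042133 counts, with a median of 22092612. The depth was even in the PFC (20299010 to 25470245) and uneven in the Amy (8713204 to 76111373) and VTA. Of the 119 libraries, 2 went against their labelled sex by Xist and 4 Y-linked genes, 1 labelled female Amy THC (FTL_344) and 1 labelled male Amy THC (FTL_356). The labels were kept, and the Amy tests of the members are also given without these libraries. Defining genes of the VTA, PFC and DMS were present where the labels place them, and none is given here for the NAc or Amy. The VTA libraries held 623 ± 174 CPM (counts scaled to a common library total) of Th (SD, n = 23), the PFC libraries 1903 ± 76.9 CPM of Slc17a7 (SD, n = 24) and the DMS libraries 318.1 ± 29.4 CPM of Drd1 (SD, n = 24). No pair of libraries within a group was as alike as sampling noise alone would make it.

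The genes that make, take up and load the transmitter were highest in the striatum, with a steep fall towards the VTA and PFC. Chat ranged from 20.02 to 35.03 CPM in the 24 DMS libraries (median 27.7) and from 12.9 to 31.4 CPM in the NAc (median 18.3). It ranged from 0.336 to 27.2 CPM in the Amy (median 6.89), from 0.265 to 1.88 CPM in the VTA (median 0.727) and from 0.0994 to 0.821 CPM in the PFC (median 0.252). The DMS and PFC ranges were far apart, whereas the Amy range reached from the VTA level to the DMS level. All 4 neighbouring steps in this order passed the test, by edgeR's quasi-likelihood test at an adjusted p under 0.05 and a log2 fold change of at least 0.4. The step from DMS to NAc was 0.55 ± 0.15 on the log2 scale (SE; adjusted p = 0.000848) and that from NAc to Amy was 1.2 ± 0.16 (adjusted p = 1.74e-10).

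Slc5a7, the choline transporter, followed the same order. Its median was 50.4 CPM in the DMS (34.0 to 59.4), 34.9 CPM in the NAc (25.6 to 56.7) and 11.9 CPM in the Amy (2.13 to 44.1). It was 2.30 CPM in the VTA (1.70 to 4.18) and 1.00 CPM in the PFC (0.630 to 2.56). All 4 steps passed the test, the smallest being 0.48 ± 0.14 between DMS and NAc (log2, SE; edgeR adjusted p = 0.00114).

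Slc18a3, the vesicular transporter, had medians of 12.01 CPM in the DMS, 9.98 CPM in the NAc and 4.47 CPM in the Amy. In the VTA and PFC both medians were 0.189 CPM, from summed counts of 129 and 107 over all libraries. The DMS and NAc did not differ past the thresholds (log2 difference 0.28 ± 0.15, edgeR adjusted p = 0.0792), nor did the VTA and PFC (-0.07 ± 0.39, adjusted p = 0.882). At these counts the exact Poisson 95% intervals, which cover counting error only, were 0.173 to 0.246 CPM in the VTA and 0.157 to 0.231 CPM in the PFC.

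Lhx8 was highest in the NAc rather than the DMS. It ranged from 6.84 to 36.4 CPM in the NAc (median 15.7), from 6.93 to 12.1 CPM in the DMS (median 10.9) and from 1.34 to 22.5 CPM in the Amy (median 7.04). The NAc range covered the whole DMS range, and the coefficient of variation was 49.2% in the NAc against 12.9% in the DMS. The NAc exceeded the DMS by 0.57 ± 0.16 (log2, SE; edgeR adjusted p = 0.000791). In the PFC 23 of 24 libraries held 0 counts and 1 female vehicle library held 6. In the VTA 13 of 23 libraries held 0 counts and the highest held 3, so no fold against either region is given.

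Ache, the degrading esterase, ran in another order. It ranged from 221 to 300.2 CPM in the VTA (median 255), from 118 to 172 CPM in the Amy (median 143) and from 92.6 to 183 CPM in the NAc (median 119). It ranged from 79.8 to 101 CPM in the DMS (median 89.0) and from 58.5 to 84.4 CPM in the PFC (median 63.6). No VTA library overlapped a library of another region. The VTA exceeded the Amy by 0.85 ± 0.04 (log2, SE; edgeR adjusted p = 3.73e-38), and the step from Amy to NAc, 0.24 ± 0.04, was below the fold threshold.

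**Figure D1:**
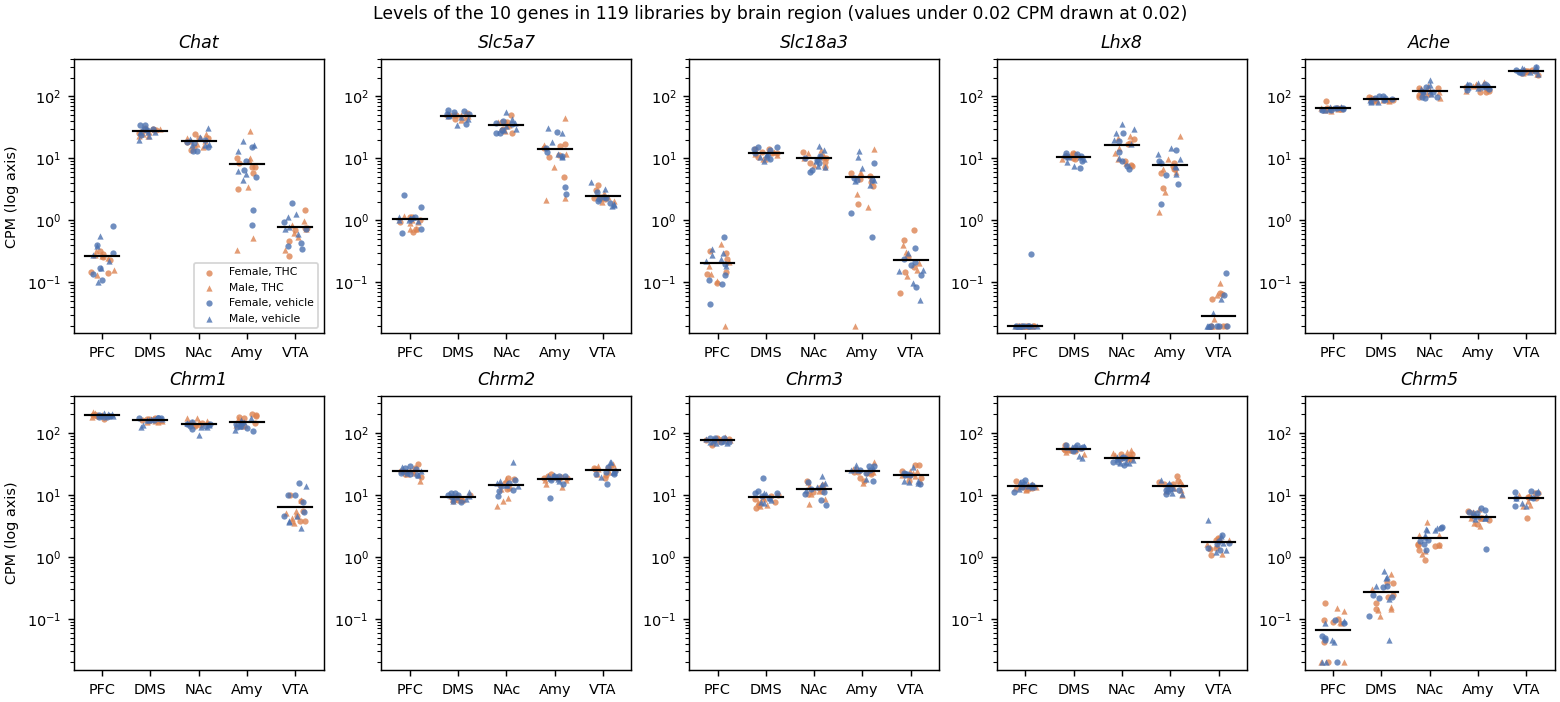
Levels of the 10 genes in CPM (log axis) against brain region, 1 point a library; blue points are vehicle, orange points THC, circles female and triangles male, bars are region means, and values under 0.02 are drawn at 0.02. Chat, Slc5a7 and Slc18a3 were highest in the DMS, Ache and Chrm5 in the VTA, and Chrm3 in the PFC, while Chrm1 was low only in the VTA.

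The receptor genes divided the regions in other ways. Chrm1, the M1 receptor of forebrain principal neurons, had medians of 193 CPM in the PFC (167 to 215), 164 CPM in the DMS (124 to 176), 143 CPM in the Amy (108 to 200.4) and 140 CPM in the NAc (93.0 to 177). These 4 ranges overlapped, and none of the neighbouring steps passed both thresholds. Between the ends of this order, the PFC exceeded the NAc past both thresholds. In the VTA it ranged from 2.899 to 15.6 CPM (median 5.13), below every library of the other regions. The step from NAc to VTA was 4.59 ± 0.08 (log2, SE; edgeR adjusted p = 3.30e-75).

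Chrm4, the M4 receptor of medium spiny neurons, had a median of 56.5 CPM (39.4 to 65.1) among DMS libraries and of 39.5 CPM (30.8 to 52.6) among NAc libraries. Its median was 13.5 CPM both in the PFC and in the Amy, which did not differ past the thresholds (0.03 ± 0.06, edgeR adjusted p = 0.611). In the VTA it ranged from 1.07 to 3.88 CPM. The DMS and NAc ranges both lay above every library of the other 3 regions.

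Chrm3, the M3 receptor, was highest in the PFC. It ranged from 63.9 to 87.0 CPM in the PFC (median 76.5) against 15.7 to 33.6 CPM in the Amy (median 24.5) and 14.9 to 30.5 CPM in the VTA (median 21.3). It was 12.4 CPM at the median in the NAc and 8.72 CPM in the DMS. The PFC exceeded the Amy by 1.67 ± 0.07 (log2, SE; edgeR adjusted p = 7.38e-41), and the Amy and VTA differed by 0.22 ± 0.08, below the fold threshold.

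Chrm2, the M2 receptor that also acts as an autoreceptor on cholinergic terminals, was lowest in the DMS, where Chat was highest. Its medians were 24.2 CPM in the VTA (15.1 to 34.6), 24.2 CPM in the PFC (17.1 to 32.1), 18.7 CPM in the Amy (9.02 to 21.4), 14.4 CPM in the NAc (6.52 to 34.6) and 9.22 CPM in the DMS (7.82 to 11.0). The VTA and PFC did not differ past the thresholds (0.08 ± 0.08, edgeR adjusted p = 0.370). The NAc exceeded the DMS by 0.65 ± 0.08 (adjusted p = 1.89e-11).

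Chrm5, the M5 receptor known from midbrain dopamine neurons, rose in steps from the PFC to the VTA. It ranged from 4.27 to 11.6 CPM in the VTA (median 9.11), from 1.32 to 6.11 CPM in the Amy (median 4.42) and from 0.886 to 3.598 CPM in the NAc (median 1.84). It was 0.237 CPM at the median in the DMS and 0.0699 CPM in the PFC, where 6 of 24 libraries held 0 counts. All 4 steps passed the test, including 0.98 ± 0.11 between VTA and Amy (log2, SE; edgeR adjusted p = 1.71e-14). The PFC sum was 34 counts, so its pooled, unscaled level of 0.0608 CPM carries a counting interval of 0.0421 to 0.0850 CPM.

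Over the 10 pairs of regions, 87 of 100 member tests passed, against 27.5% to 58.9% of all 18932 genes tested in a pair. In DMS against PFC 9 members were called (50.8% of all genes), in NAc against PFC 10 (47.1%), in Amy against PFC 8 (37.7%) and in VTA against PFC 7 (56.6%). In NAc against DMS 8 were called (33.5%), in Amy against DMS 9 (44.9%) and in VTA against DMS 10 (58.9%). In Amy against NAc 7 were called (27.5%), in VTA against NAc 10 (54.7%) and in VTA against Amy 9 (46.3%). The share of members was above the share of all genes in each pair, and this difference was not tested. The PFC and DMS libraries came in one table and the other regions in a second, so 6 of the 10 pairs cross tables and region cannot be told apart from table in those. The fit treated the samples of a mouse as independent, since the labels do not pair them.

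Per kilobase of exon, the members could be set beside each other within a region. In the DMS the levels were 38.4 CPM per kb for Chrm4, 25.004 for Chrm1, 19.4 for Ache, 8.63 for Slc5a7, 5.87 for Chat, 4.99 for Slc18a3 and 4.16 for Lhx8. Chrm2 and Chrm3 stood at 1.52 and 1.46 CPM per kb there, and Chrm5 at 0.170. In the VTA Ache led with 55.8 CPM per kb, followed by Chrm5 with 5.60, Chrm2 with 4.16 and Chrm3 with 3.37. Some of these orders depend on the length used. Per kilobase of the longest transcript, DMS Chat stood above Slc5a7 (9.65 and 9.40) and Lhx8 above Slc18a3 (5.08 and 4.99). Chrm3 then stood above Chrm2 in the DMS (2.10 and 1.62) and in the VTA (4.86 and 4.44). The gene models of Chrm4 and Chrm5 in the annotation used for lengths hold only the coding sequence, so their levels are per kilobase of coding length.

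Another 9 genes of cholinergic neurons were counted beside the members (among them Isl1, Gbx2, Nkx2-1, Zic4, Slc17a8, Slc10a4 and Tacr1), and all 9 were higher in the DMS and in the NAc than in the PFC past both thresholds. Of all 18932 genes, 26.9% were called higher in the DMS than in the PFC and 26.3% in the NAc than in the PFC. Isl1, a LIM homeobox factor of striatal cholinergic interneurons, was 19.3 ± 1.35 CPM in DMS libraries and 27.1 ± 2.57 CPM in NAc libraries (SD, n = 24 each). Slc17a8, the vesicular glutamate transporter carried by striatal cholinergic interneurons, was 22.6 ± 3.46 CPM in the DMS. Zic4 was 8.35 ± 3.25 CPM in the NAc and Gbx2 2.33 ± 1.195 CPM there. Slc10a4, a vesicular protein of cholinergic and monoaminergic neurons, was 134 ± 37.6 CPM in the VTA, where Chat was below 2 CPM in every library. Outside this list, Bche, the other cholinesterase gene, was 8.26 ± 1.57 CPM in the VTA and 4.31 ± 0.709 CPM in the DMS.

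Within the groups of the DMS, NAc and Amy, Chat, Slc5a7, Slc18a3 and Lhx8 varied together. After the group means of log2 CPM were subtracted, Pearson's r of Chat with Slc5a7 was 0.81 for DMS, 0.93 for NAc and 0.97 for Amy libraries, over 24 libraries each. For Chat with Slc18a3 it was 0.76, 0.82 and 0.91, and for Chat with Lhx8 it was 0.76, 0.63 and 0.96. In the VTA r was 0.05 for Slc5a7 and 0.25 for Slc18a3 over 23 libraries, and in the PFC it was 0.29 and 0.24 over 24. Over the 6 pairs of these 4 genes r ran from 0.24 to 0.66 in the PFC (median 0.50) and from -0.07 to 0.46 in the VTA (median 0.09). In the PFC Lhx8 had counts in 1 of 24 libraries only, FTL_264, which was also the highest there for Chat, Slc5a7 and Slc18a3. In the VTA it had counts in 10 of 23 libraries. Chat held 2 to 17 counts a library in the PFC and 2 to 65 in the VTA, so these r values rest on few counts. The libraries of a region share a dissection, and the points share depth, so these values are descriptions. In the Amy, r of Chat with Slc5a7 was 0.97 also without libraries FTL_344 and FTL_356.

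Within the striatum, Slc5a7 stood to Chat as 1.77 ± 0.145 in the DMS and 1.87 ± 0.158 in the NAc (ratio of CPM, SD, n = 24 each), and Slc18a3 stood to Chat as 0.437 ± 0.0331 and 0.531 ± 0.0748. The ratio of Lhx8 to Chat was 0.385 ± 0.0471 in the DMS and 0.846 ± 0.354 in the NAc, with NAc libraries between 0.429 and 1.79.

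The spread of Chat, Slc5a7, Slc18a3 and Lhx8 within groups was wider in the Amy than in the other regions, whereas that of Ache was not. The standard deviation of log2 CPM of Chat within groups was 1.53 in the Amy against 0.17 (DMS), 0.30 (NAc), 0.59 (PFC) and 0.65 (VTA). That of Ache was 0.13 in the Amy and 0.23 in the NAc. In the Amy 4 libraries, 2 female vehicle and 2 male THC, lay between 0.336 and 1.46 CPM, while 1 male THC library (FTL_352) reached 27.2 CPM. That library also held the highest Slc5a7 of the Amy (44.1 CPM) and the highest Lhx8 (22.5 CPM). Its summed level of 8 medium spiny neuron markers was 3002 CPM, against a mean of 1058 CPM over the Amy libraries. Which cells each punch held was not tested.

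**Figure D2:**
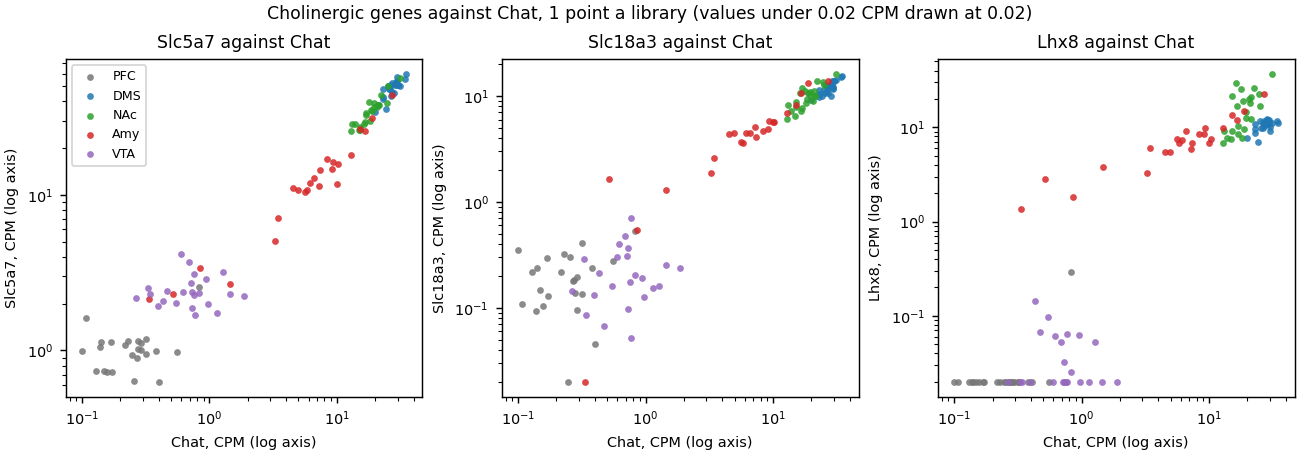
Slc5a7, Slc18a3 and Lhx8 against Chat, all in CPM on log axes, 1 point a library and 1 color a region; values under 0.02 are drawn at 0.02. The DMS and NAc libraries lie close together at the upper end, and the Amy libraries stretch from 0.336 to 27.2 CPM of Chat.

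The genes whose pattern over all 119 libraries was most like that of a member were ranked by Pearson's r of log2 CPM among 18932 genes. For Chat they were Slc5a7 (0.98), Slc18a3 (0.96), Penk (0.96), Adora2a (0.96) and Nt5e (0.95). For Chrm1 they were Ptk2b (0.99), Lzts1 (0.99), Npy (0.99), Kcnh3 (0.99) and Ccsap (0.98). For Chrm2 they were Cadps (0.93), Nrip3 (0.93), Coro6 (0.93), Limk1 (0.92) and Appbp2 (0.92). For Chrm4 they were Akap5, Cpne5, Arhgap33, Lmo7 and Bcl11b, all at 0.98. These values are set mainly by the differences between the 5 regions.

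Within the groups of the region where a member was highest, the most like genes were others. For Chat in the DMS they were Kcnk2 (0.87), Clspn (0.87), Rxrg (0.85), Syndig1l (0.85) and Acly (0.85). For Chrm4 in the DMS they were Drd2 (0.92), Gcnt2 (0.91), Rasgrp2 (0.91), Inpp5a (0.90) and Actn2 (0.90), and for Chrm1 in the PFC they were Sidt1 (0.88), Stx1a (0.88), Prdm8 (0.87), Crhr1 (0.86) and Cry2 (0.85). Each rests on 24 libraries and is a description.

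THC was compared with vehicle separately in each sex and region, which asks whether adolescent exposure left a difference in these genes in later life. Of 100 pairs of member and comparison, 86 passed the filter on low counts, 9 of them had an unadjusted p under 0.05, and 36 differences were positive and 50 negative. Chat, Slc18a3, Lhx8 and Chrm5 could not be tested in the PFC, Chrm5 in the DMS, and Slc18a3 and Lhx8 in the VTA. Past both thresholds, 2 of the 86 were called, Chrm1 and Chrm4 in the female Amy. Where tested, the genes that make, load and degrade acetylcholine were called in none of the 10 comparisons. In 8 of the 10, edgeR called 0 genes of all those tested. Between comparisons, 1.84% to 21.9% of all genes had an unadjusted p under 0.05 by edgeR.

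In the female Amy, Chrm1 held 108, 128 and 142 CPM as the lowest, median and highest value in vehicle, and 147, 184 and 200.4 CPM in THC. All 6 THC libraries, FTL_344 among them, lay above every vehicle library. The share of all genes without such overlap is not given here. Chrm1 was higher by 0.50 ± 0.08 on the log2 scale (SE, 1.42-fold, edgeR adjusted p = 0.0117). Chrm4 held 10.4, 12.2 and 14.3 CPM in vehicle and 13.8, 15.8 and 19.9 CPM in THC, with 5 of 6 THC libraries above every vehicle library. It was higher by 0.41 ± 0.09 (1.33-fold; adjusted p = 0.0383). In this comparison 1.57% of 17003 genes were called, and 2 of the 10 members were. An unadjusted p under 0.05 by edgeR was held by 21.9% of all genes. Library FTL_356, labelled male THC but against that sex by its genes, held 169 CPM of Chrm1 and 11.8 CPM of Chrm4.

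Without library FTL_344, Chrm1 was higher by 0.50 ± 0.09 (edgeR adjusted p = 0.0265) and Chrm4 by 0.45 ± 0.09 (adjusted p = 0.0427). Chrm1 kept its call when any 1 of the 12 libraries was left out, with the adjusted p between 0.00371 and 0.0418. Chrm4 kept it in 3 of 12, with the log2 fold change between 0.34 and 0.45 and the adjusted p between 0.0277 and 0.0989. The call was lost without vehicle library FTL_333, FTL_334, FTL_335, FTL_337 or FTL_338 or THC library FTL_339, FTL_340, FTL_341 or FTL_342. Without FTL_338 the fold change of 0.37 fell under the threshold at an adjusted p of 0.0277 (edgeR), and without the other 8 the adjusted p was above 0.05. With the male groups in the same fit its adjusted p was 0.0889.

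The other 8 members did not pass in the female Amy. Chat held 0.851, 5.78 and 15.2 CPM in vehicle and 3.25, 7.26 and 10.3 CPM in THC, with a log2 difference of 0.12 ± 0.55. Slc5a7 (0.05 ± 0.50) and Slc18a3 (0.05 ± 0.48) were also within their spread. Ache stood at 142 ± 11.7 CPM in vehicle and 130 ± 11.9 CPM in THC (SD, n = 6 each; log2 -0.13 ± 0.07, edgeR adjusted p = 0.273). Without library FTL_344 the log2 differences were 0.11 ± 0.59 for Chat, 0.003 ± 0.54 for Slc5a7 and 0.06 ± 0.52 for Slc18a3 (SE). For Ache the difference was then -0.14 ± 0.08 (edgeR adjusted p = 0.354).

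Beside the receptors, the list of the Gq pathway had 3 of 10 genes called higher in the female Amy, against 1.09% of all genes. Among them were Itpr1, the IP3 receptor of the endoplasmic reticulum, at 0.54 ± 0.13 and Prkcb, a protein kinase C gene, at 0.70 ± 0.16 (log2, SE, edgeR adjusted p = 0.0462 and 0.0367). The median log2 fold change of the 10 was 0.46, against -0.01 over all genes tested. An unadjusted p under 0.05 was held by 7 of the 10, against 21.9% of all genes in this comparison. Without library FTL_344, 1 of the 10 was called and Itpr1 and Prkcb were not (edgeR adjusted p = 0.0707 and 0.0552), with 0.936% of all genes called. In that fit 7 of the 10 had an unadjusted p under 0.05 by edgeR, against 18% of all genes. The G protein genes Gnaq (log2 0.09 ± 0.05, SE) and Gna11 (-0.01 ± 0.06) and the gene Plcb4 (-0.17 ± 0.11) were not among them. The Gi/o list had 0 of 8 called (4 of 8 at an unadjusted p under 0.05, edgeR) and a median of 0.17. The companion genes of cholinergic neurons had 0 of 9 called and 0 of 9 at an unadjusted p under 0.05, and the genes of acetylcholine turnover 0 of 5 and 0 of 5.

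Markers of other neurons moved with treatment in the same libraries. The summed level of 6 markers of cortical and basolateral projection neurons ran from 505 to 746 CPM in female vehicle and from 795 to 1137 CPM in female THC, without overlap, and Slc17a7, Tbr1 and Neurod6 were called higher. The summed level of 8 medium spiny neuron markers ran from 509 to 1116 CPM in vehicle and from 892 to 1472 CPM in THC, with 0 of 8 called by edgeR and 7 of 8 at an unadjusted p under 0.05, against 21.9% of all genes. Another 8 markers, of the hypothalamus and medial amygdala, summed to 402 to 537 CPM in vehicle and 267.5 to 414 CPM in THC, with Calcr and Irs4 called lower. Of the dopaminergic neuron list 4 of 6 were tested, all 4 with a lower fitted mean in THC, and Th was called lower (log2 -0.64 ± 0.13, SE; edgeR adjusted p = 0.0253). Without library FTL_344 Slc17a7, Tbr1, Neurod6 and Irs4 were still called, and Calcr and Th were not (edgeR adjusted p = 0.0641 and 0.0519). None of the markers of the first 3 lists was at 0 in all libraries of either group. Among non-neuronal lists, all 6 oligodendrocyte markers had a lower fitted mean in THC (median log2 -0.44). Of these 0 were called and 2 had an unadjusted p under 0.05 by edgeR. Of the choroid plexus list 4 of 5 were tested, all 4 higher (median 1.28) and 0 called. That list summed to 17.4 to 1147 CPM in vehicle and 18.0 to 3566 CPM in THC. No marker of astrocytes, microglia or endothelium was called. The part of all these lists in the receptor result was not tested.

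Within the Amy groups, log2 CPM of Chrm1 followed the projection neuron markers with r = 0.79 over 24 libraries, and Chrm4 followed the medium spiny neuron markers with r = 0.72. Without libraries FTL_344 and FTL_356 the values were 0.77 and 0.71 over 22 libraries. Other lists varied with the receptors in those 22 as well. For Chrm4 r was -0.71 with the hypothalamus and medial amygdala markers and 0.64 with microglia markers, so it did not follow 1 list alone. For Chrm1 r was -0.53 with the dopaminergic neuron markers. The median depth was 26933795.5 counts in female vehicle and 44472649.5 in female THC, and 28362507.5 in male vehicle and 12766415 in male THC. The part of depth in the result was not tested.

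**Figure D3:**
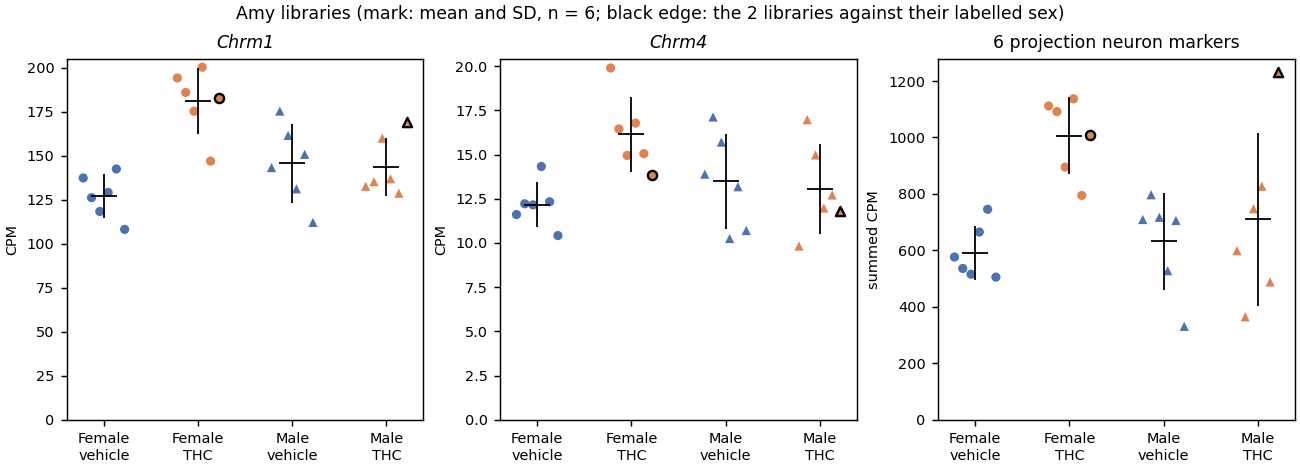
Chrm1 and Chrm4 in CPM and the summed CPM of 6 projection neuron markers in the 24 Amy libraries by group, with the mean and SD (n = 6 each); the 2 libraries that went against their labelled sex have a black edge. The 6 female THC libraries lie above the 6 female vehicle libraries for Chrm1 and for the markers, and the male groups overlap.

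In the male Amy, Chrm1 held 112, 147 and 175 CPM in vehicle and 129, 136 and 169 CPM in THC, and Chrm4 held 10.3, 13.5 and 17.1 CPM in vehicle and 9.83, 12.3 and 17.0 CPM in THC. The groups overlapped, and 0 of 10 members and 0 of 15321 genes were called (0%) by edgeR, with 1.84% of genes at an unadjusted p under 0.05. The log2 difference was -0.02 ± 0.10 for Chrm1 and -0.05 ± 0.14 for Chrm4 (SE), and without library FTL_356 it was -0.07 ± 0.10 and -0.01 ± 0.15. DESeq2 also called 0 genes there.

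The difference between the sexes was tested as an interaction. The male effect of THC in the Amy minus the female effect was -0.52 ± 0.13 for Chrm1 and -0.45 ± 0.18 for Chrm4 (log2, SE), and neither passed after adjustment (edgeR adjusted p = 0.232 and 0.262). In that test 0.0059% of 16956 genes were called, and no member was. Without libraries FTL_344 and FTL_356 the values were -0.57 ± 0.14 and -0.47 ± 0.19 (adjusted p = 0.196 and 0.227).

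In the male NAc the receptors Chrm4 and Chrm1 stood higher in THC without passing the adjusted threshold. Of the 10 members 3 had a higher and 7 a lower fitted mean in THC there. In males Chrm4 held 32.6, 35.3 and 41.4 CPM in vehicle and 38.7, 45.4 and 52.6 CPM in THC, and the log2 difference was 0.35 ± 0.07 (SE; edgeR adjusted p = 0.210). Chrm1 held 93.0, 130 and 144 CPM in vehicle and 144, 153 and 177 CPM in THC (0.32 ± 0.09, adjusted p = 0.210). In both cases the groups overlapped by part of their range. In females Chrm4 differed by 0.17 ± 0.07 (adjusted p = 0.991) and Chrm1 by 0.04 ± 0.05 (adjusted p = 0.993).

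Among markers of other neurons in the same male NAc libraries, all 8 medium spiny neuron markers had a higher fitted mean in THC, with a median log2 difference of 0.37, and 8 of 8 had an unadjusted p under 0.05 by edgeR, though 0 were called. Their summed level ran from 2913 to 4343 CPM in vehicle and from 3832 to 6029 CPM in THC. The projection neuron markers summed to 4.82 to 104.9 CPM in vehicle and 2.08 to 12.3 CPM in THC, where 2 of 6 markers were tested, both lower at an unadjusted p under 0.05 (median log2 -2.39). The hypothalamus and medial amygdala markers summed to 229 to 376.3 CPM in vehicle and 188 to 372.03 CPM in THC, with 3 of the 6 tested at an unadjusted p under 0.05. In the female NAc 0 of 8 medium spiny neuron markers had an unadjusted p under 0.05 by edgeR, and their median was 0.02. The part of these markers in the receptor values was not tested.

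In male NAc 3 of 10 members had an unadjusted p under 0.05, against 16.7% of all 15932 genes, and 0 genes were called (0%). In female NAc 2 of 10 had one, against 4.61%, and 0 of 16428 genes were called (0%). With both sexes in 1 fit, Chrm4 differed by 0.26 ± 0.05 (edgeR adjusted p = 0.244) and Chrm5 by -0.47 ± 0.16 (adjusted p = 0.384), and 0% of 16773 genes were called.

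Other members of the male NAc varied widely. Lhx8 held 10.2, 22.9 and 36.4 CPM in vehicle and 8.43, 13.4 and 22.7 CPM in THC (log2 -0.64 ± 0.33, edgeR adjusted p = 0.357). Chrm3 held 12.1, 14.5 and 20.5 CPM in vehicle and 7.08, 10.8 and 16.0 CPM in THC, and was not called. Chrm2 held 13.8, 14.99 and 34.6 CPM in vehicle and 6.52, 10.7 and 17.8 CPM in THC (-0.67 ± 0.31, adjusted p = 0.305), with 1 vehicle library (FTL_325) far above the others. That library also held 218 CPM of summed cholinergic markers, against a mean of 139 CPM over the NAc libraries.

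In the DMS no member was called in either sex, where 0.0127% of 15800 genes in females and 0% of 16093 in males were. Chat held 24.1, 29.9 and 35.03 CPM in female vehicle and 25.6, 28.7 and 31.4 CPM in female THC, a log2 difference of -0.08 ± 0.08 (SE). In males it was 0.04 ± 0.09. Chrm3 held 8.87, 10.8 and 19.1 CPM in female vehicle and 6.05, 8.07 and 10.0 CPM in THC (-0.54 ± 0.18, edgeR adjusted p = 0.387). The highest vehicle value belonged to library FTL_285, whose projection neuron markers summed to 263.7 CPM against a mean of 15.9 CPM over the DMS libraries. In males Lhx8 differed by 0.21 ± 0.09 (adjusted p = 1.00). An unadjusted p under 0.05 was held by 1 of 9 members in each sex, against 8.9% of all genes in females and 1.93% in males.

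In the PFC 0% of 15904 genes in females and 0% of 15936 in males were called, and no member was among the 5.84% of genes in females and 4.07% in males at an unadjusted p under 0.05. Chrm1, the most abundant receptor gene there, differed by 0.01 ± 0.04 in females and by -0.00 ± 0.04 in males (log2, SE). Chrm3 differed by -0.04 ± 0.06 and 0.07 ± 0.05.

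In the VTA 0% of 15747 genes in females and 0% of 17103 in males were called, and 0 of the 8 members tested had an unadjusted p under 0.05 by edgeR in females and 0 of 8 in males. Chrm5 held 6.54, 9.87 and 11.5 CPM in female vehicle and 4.27, 9.20 and 10.7 CPM in female THC (log2 -0.13 ± 0.19). In males the 5 vehicle libraries ran from 6.67 to 11.6 CPM (median 8.89) and the 6 THC libraries from 6.58 to 10.1 CPM (median 8.78). Ache differed by -0.05 ± 0.06 in females and -0.07 ± 0.07 in males. In the male vehicle group 1 library (FTL_371) held only 3090998 counts, and its Chrm1 value of 14.03 CPM rests on 47 counts.

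**Figure D4:**
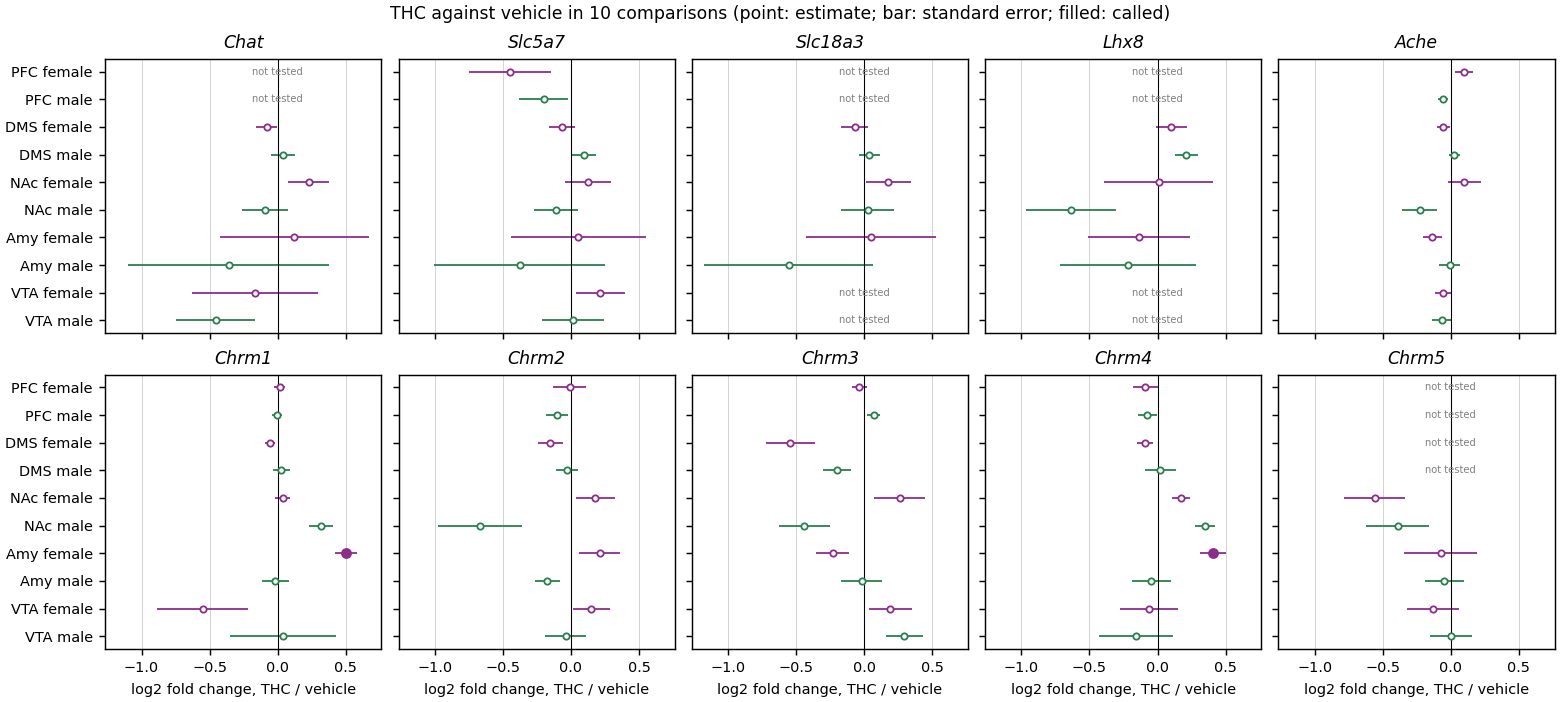
Log2 fold change of THC over vehicle with its standard error for the 10 genes in each sex and region, purple for females and green for males; filled points passed both thresholds. Only Chrm1 (0.50) and Chrm4 (0.41) in the female Amy are filled.

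Between the sexes no member passed both thresholds in any region. In the DMS, where 2.64% of 16605 genes were called, 9 of 9 members tested had a lower fitted mean in males. Slc18a3 was lower by 0.22 ± 0.07 (male minus female -0.22; edgeR adjusted p = 0.0303) and Chrm1 stood at -0.12 ± 0.04 (adjusted p = 0.0431), both under the fold threshold. Male DMS Slc18a3 was 10.9 ± 1.11 CPM in vehicle and 11.2 ± 1.09 CPM in THC, and the female values were 13.4 ± 2.02 and 12.7 ± 1.27 CPM (SD, n = 6 each). In the NAc, where 0.25% of genes were called, 10 of 10 members had a higher fitted mean in males, none past the thresholds. The share called was 0.237% in the PFC, 0.0118% in the Amy and 0.113% in the VTA. The Amy share was 2 genes with the labels kept, and 14 genes were called without libraries FTL_344 and FTL_356, which went against their labelled sex.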

How the data were processed

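The deposited tables held expected counts per gene and library, which the authors made by trimming with cutadapt 2.9, alignment with STAR 2.7.3a to mm10 and quantification with RSEM 1.3.1 from stranded poly(A) libraries; 1 male VTA vehicle sample had low RNA quality and was not made into a library. The authors also removed 1 male VTA sample as an outlier from their own analysis, whereas all 119 libraries were used here. Both tables were joined on 55291 genes and rounded to whole numbers; 0 columns of other samples were present. Groups came from the sample titles. Genes passing edgeR's filterByExpr were scaled by TMM and tested with edgeR 4.0.16 (quasi-likelihood, robust), with Benjamini-Hochberg adjustment over all genes tested, in each sex and region, in 4-group fits for sex and interaction, and over all 119 libraries for region. A call needed an adjusted p under 0.05 and a log2 fold change of at least 0.4. CPM values used TMM over all libraries, except the pooled levels with counting intervals, and correlations used log2 CPM with a prior count of 2. Lengths came from GENCODE M21. Alternatives were DESeq2 1.42.0, its size factors, no filter, a joint fit, limma-voom (limma 3.58.1) and leaving out libraries. The scripts were tested on simulated counts. All 10 members are named. Further genes were named when called in a THC comparison, as fixed companions or listed genes, or as the 5 most correlated genes. Some genes of the lists are not reported here by name. The members and lists were chosen with earlier results of these data known. Replicates are libraries of separate punches; p-values measure the spread between libraries. Intervals and low counts cover counting error only.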

Additional observations from a re-analysis of the deposited data

Results flagged for a closer look

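Each member was checked in each of the 20 groups for 1 library far from the rest. Of 200 such checks 18 marked a library, and chance marks about 1 in 20 checks. The male Amy THC library FTL_352 was high for Chat (27.2 CPM) and Slc5a7 (44.1 CPM). The female DMS vehicle library FTL_285 was low for Slc5a7 (35.8 CPM) and high for Chrm3 (19.1 CPM), and library FTL_290 of that group was low for Chrm1 (164 CPM).

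In the female PFC, vehicle library FTL_264 was high for Slc18a3 (0.531 CPM, 11 counts) and Lhx8 (0.290 CPM, 6 counts), and its medium spiny neuron markers summed to 631 CPM against a mean of 282.2 CPM over the PFC libraries. THC library FTL_272 was high for Ache (84.4 CPM) and low for Chrm1 (167 CPM) and Chrm3 (63.9 CPM), and THC library FTL_267 was high for Chrm4 (16.5 CPM).

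The shallow male VTA vehicle library FTL_371 was high for Chrm1 (14.03 CPM) and Chrm3 (27.8 CPM). The male NAc vehicle library FTL_325 was high for Chrm2 (34.6 CPM). The female VTA vehicle library FTL_362 was low for Chrm3 (14.9 CPM) and the female VTA THC library FTL_363 was low for Chrm5 (4.27 CPM). In the Amy, female vehicle library FTL_338 was low for Chrm5 (1.32 CPM) and male vehicle library FTL_350 was high for it (5.404 CPM).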

How the results depend on the processing

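No paired analysis was possible because the library numbers are unique and no groups share a replicate number. Chrm1 in the female Amy kept its call in all 17 alternatives run and Chrm4 in 7 of 17. Beyond leave-one-out fits, single-gene results kept direction and side of the threshold in 1160 cases and reversed in 5, became significant in 2 and lost it in 4; in leave-one-out fits the counts were 547 kept, 42 reversed and 9 lost. The cause of these changes was not tested.

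Of the 17003 genes tested, 1.57% were called for THC in the female Amy. As a share of the same 17003 the genes called came to 3.20% by DESeq2, 2.67% by DESeq2 without library FTL_344, 0.741% with all 4 groups in 1 fit and 0.329% to 1.70% when 1 library was left out, with shares from 0.329% to 0.935% without library FTL_333, FTL_335, FTL_339, FTL_340, FTL_342 or FTL_344; members called were 1 with all 4 groups in 1 fit and 1 to 2 when a library was left out. By DESeq2 the genes called for THC were 24 in female DMS (2 by edgeR, 4 without a filter, 5 with all 4 groups in 1 fit), 5 in male NAc, 6 in female VTA (1 without a filter), 1 in male VTA and 2 in the Amy of both sexes, where edgeR called 0 in these last 4. Between the sexes DESeq2 called 65 genes in the NAc (edgeR 42), 34 in the VTA (19) and 13 in the Amy (2), and the Amy count was 14 without libraries FTL_344 and FTL_356 and 6 to 9 without 1 of them. For sex by treatment it called 3 in the DMS and 27 in the Amy, where edgeR called 1, 2 without a filter, 2 without library FTL_344 or FTL_356, and 0 without both.

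Uncalled differences that changed sign by DESeq2 were female NAc Lhx8 (-0.02), male VTA Chrm1 (-0.13) and male minus female VTA Chrm4 (-0.01). Without libraries FTL_344 and FTL_356 those of Lhx8 in the Amy interaction (0.12) and Chrm2 between the sexes (0.03) did. Leaving out 1 library gave, in the female Amy, -0.12 to 0.60 for Chat, -0.17 to 0.48 for Slc5a7, -0.19 to 0.41 for Slc18a3, -0.35 to 0.15 for Lhx8 and -0.28 to 0.02 for Chrm5, and 0.01 for Chrm5 in the male Amy. In the male VTA it gave -0.16 to 0.44 for Chrm1, -0.15 to 0.07 for Chrm2, -0.31 to 0.03 for Chrm4, -0.09 to 0.08 for Chrm5 and -0.10 to 0.17 for Slc5a7. For sex in the Amy it gave -0.01 to 0.03 for Chrm2 and -0.03 to 0.00040 for Chrm5, for sex in the VTA -0.06 to 0.08 for Chrm4, for the interaction -0.06 to 0.11 for Lhx8 in the Amy and -0.05 to 0.03 for Ache and -0.25 to 0.09 for Chrm4 in the VTA, and for THC over both sexes in the Amy -0.13 to 0.01 for Chat. Chat, Slc18a3, Lhx8 and Chrm5 in the PFC, Chrm5 in the DMS and Slc18a3 and Lhx8 in the VTA had too few counts to pass the filter for the THC comparisons.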
